A study of Mus musculus with 36 samples.

Results

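Nitric oxide and cyclic GMP (cGMP) signaling was described through 7 genes that form its core: the nitric oxide synthases Nos1, Nos2 and Nos3, the subunits Gucy1a1 and Gucy1b1 of soluble guanylate cyclase, the cGMP phosphodiesterase Pde5a and the cGMP-dependent kinase Prkg1. They were chosen by name for their place in the pathway, with earlier results of these data known, and they are 7 of the 52636 genes in the count table. All 7 passed the filter on low counts, as did 15330 genes in all. The RNA of all 7 was lower in S100β-GFP+;NG2-dsRed+ PSCs than in NG2-dsRed+ cells. Against S100β-GFP+ cells, PSCs had more Pde5a and less Gucy1b1 and Prkg1, but without 3 S100β-GFP+ libraries that stood apart only the call for Pde5a was left of these, and Nos2 and Nos3 were then higher in PSCs.

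RNA came from skeletal muscle (diaphragm, pectoralis, forelimb and hindlimb) of mice that carry both an S100β-GFP and an NG2-dsRed transgene and no other allele named in the labels, with no treatment. FACS separated PSCs (perisynaptic Schwann cells, the glia of the neuromuscular junction, positive for both reporters), S100β-GFP+ cells, which the study calls Schwann cells, and NG2-dsRed+ cells, which in muscle include pericytes. Each library was made from what the sort gave from a single mouse, and of the 12 per cell type that the labels name the table has 9 for PSCs, 8 for S100β-GFP+ cells and 10 for NG2-dsRed+ cells. The labels give ages from P15 to an upper end that differs by library, from P21 to P46, while the study describes juvenile mice. GFP follows the S100b promoter and dsRed the promoter of Cspg4, which encodes NG2, so each group is defined by promoter activity and can hold more than 1 cell type. The sources used here do not say whether libraries of different cell types came from the same mouse.

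Nitric oxide is a gas made from arginine by the synthases, and it acts on nearby cells because it crosses membranes. Nos1 is the neuronal enzyme, which in skeletal muscle also sits under the membrane of the fibre, Nos2 is the inducible enzyme of inflammation, and Nos3 is the enzyme of endothelium. Nitric oxide binds the heme of soluble guanylate cyclase, an obligate pair of an alpha and a beta subunit, which then makes cGMP. Pde5a breaks cGMP down and is the target of sildenafil, while Prkg1 carries the signal by phosphorylating other proteins, and in smooth muscle and pericytes this pathway relaxes the vessel wall.

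In GRCm38, Nos1 (ENSMUSG00000029361) lies at chr5:117781032-117958840 on the plus strand and Nos3 (ENSMUSG00000028978) at chr5:24364810-24384474 on the plus strand. Nos2 (ENSMUSG00000020826) lies at chr11:78920787-78960254 on the plus strand. Gucy1a1 (ENSMUSG00000033910, chr3:82092427-82145789) and Gucy1b1 (ENSMUSG00000028005, chr3:82032006-82074689) are neighbours on the minus strand, 17.7 kb apart with 0 annotated genes between them. Pde5a (ENSMUSG00000053965) is farther along the same chromosome at chr3:122728947-122859374 on the plus strand, and Prkg1 (ENSMUSG00000052920) lies at chr19:30564489-31765033 on the minus strand. These spans hold exons, introns and UTRs, and the counts are sums over the exons of each gene.

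RefSeq promoter windows (GRCm38.p6) were at hand for 5 of the 7 genes, with none for Nos2 and Nos3. The upstream bases are shown for the cyclase pair and the kinase, the genes with the largest differences between PSCs and NG2-dsRed+ cells, so that their starts can be compared. Only bases before the first base of the annotated gene are printed, 5′ to 3′ on the strand of the gene, with a GC box (GGGCGG) or a CCAAT box (CCAAT) on either strand in capitals.
Gucy1a1 (chr3:82145790-82145900, minus strand): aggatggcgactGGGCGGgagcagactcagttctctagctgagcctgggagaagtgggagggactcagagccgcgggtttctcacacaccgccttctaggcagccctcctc
Gucy1b1 (chr3:82074712-82074961, minus strand): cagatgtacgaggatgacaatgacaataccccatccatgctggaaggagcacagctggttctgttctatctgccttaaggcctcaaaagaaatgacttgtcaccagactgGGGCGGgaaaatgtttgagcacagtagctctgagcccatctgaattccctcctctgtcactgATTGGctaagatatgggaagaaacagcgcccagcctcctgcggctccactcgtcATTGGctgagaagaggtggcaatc
Prkg1 (chr19:31765034-31765283, minus strand): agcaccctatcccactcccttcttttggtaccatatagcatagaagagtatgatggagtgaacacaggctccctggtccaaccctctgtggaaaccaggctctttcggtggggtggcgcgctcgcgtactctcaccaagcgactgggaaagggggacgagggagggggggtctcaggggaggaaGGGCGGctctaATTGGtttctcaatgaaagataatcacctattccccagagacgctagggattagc

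Each of the 3 sequences held 1 GC box. The CCAAT box was found 2 times before Gucy1b1 and 1 time before Prkg1, each time on the opposite strand, and not in the shorter stretch before Gucy1a1. Neither a TATA box (TATAAA) nor a CArG box, the motif of serum response factor in smooth muscle genes, was found in any of them. Of all 32851 RefSeq windows of 250 upstream bases, 32.7% held a GC box, 33.8% a CCAAT box, 12.4% a TATA box and 1.47% a CArG box. The window of Pde5a, with 39 bases before the annotated gene, also held 1 GC box. That of Nos1, which lies inside the annotated gene, held none of the 4 motifs. Gucy1a1 and Prkg1 each have another window inside the gene, with none of the 4 motifs for Gucy1a1 and 1 GC box for Prkg1.

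Counts on genes were between 5221655 and 9592875 per library, and levels are given as CPM, counts per 1000000 counts after TMM scaling. The sorts were checked with marker lists summed in CPM. Schwann cell markers summed to between 2249 and 2895 in PSCs, between 651 and 1976 in S100β-GFP+ cells and between 74.3 and 443 in NG2-dsRed+ cells. The S100β-GFP+ libraries went against a pure Schwann cell label: the lineage factor Sox10 was at 5.57 to 38.8 CPM there against 379 to 703 in PSCs, and fibroblast markers summed to 9677 to 21073 against 424 to 1745 in PSCs. Macrophage and leukocyte markers summed to 1069 to 10370 in S100β-GFP+ cells and to at most 570 in PSCs. Pericyte and smooth muscle markers summed to 6798 to 14954 in NG2-dsRed+ cells, to 205 to 777 in PSCs and to 209 to 1529 in S100β-GFP+ cells. S100β-GFP+ libraries 14, 17 and 22 stood apart: 427 to 1076 of 1134 olfactory receptor genes had a count there, against 95 to 197 in the other 5 and at most 160 in any library of the other cell types. The results of the 7 genes that use S100β-GFP+ cells are therefore given with and without these 3 libraries.

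**Figure D1:**
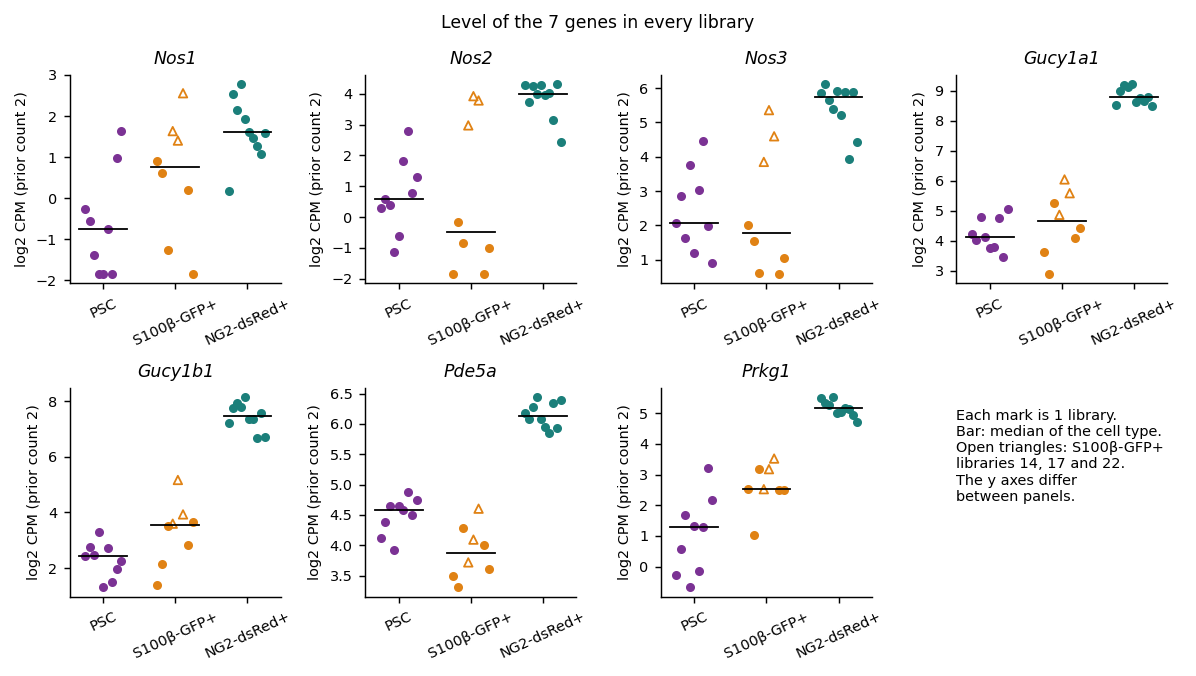
Level of the 7 genes in every library as log2 CPM with a prior count of 2 (y axis) by cell type (x axis), 9 PSC, 8 S100β-GFP+ and 10 NG2-dsRed+ libraries; bars are medians and open triangles are S100β-GFP+ libraries 14, 17 and 22. Gucy1a1, Gucy1b1, Pde5a and Prkg1 were higher in each NG2-dsRed+ library than in any other library, and the 3 triangles for Nos2 and Nos3 lie above the other S100β-GFP+ libraries.

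Nos1 was the least abundant synthase by CPM per kb of exon in PSCs and in NG2-dsRed+ cells, at 0.0588 ± 0.0876 and 0.292 ± 0.156. On the CPM scale it ranged in PSCs from 0 to 2.84 CPM (mean 0.656 ± 0.976, SD, n = 9, median 0.313), in S100β-GFP+ cells from 0 to 5.60 (mean 1.83 ± 1.81, n = 8, median 1.42), and in NG2-dsRed+ cells from 0.851 to 6.58 (mean 3.26 ± 1.74, n = 10, median 2.76). PSC libraries 18, 20 and 31 had 0 counts, which allows up to 0.526, 0.287 and 0.429 CPM at 3 counts, and PSC library 36 gave 27 of the 54 counts of all PSCs. The groups overlap, with 7 of 9 PSC libraries below each NG2-dsRed+ library. Nos1 was lower in PSCs than in NG2-dsRed+ cells by a log2 fold change of -2.26 (SE 0.71, adjusted p = 0.0101, edgeR). Against S100β-GFP+ cells the difference did not pass the test (log2 fold change -1.43, 95% interval -2.87 to 0.0052, adjusted p = 0.111), nor did that between S100β-GFP+ and NG2-dsRed+ cells (-0.83, interval -2.18 to 0.53, adjusted p = 0.398). Without PSC library 36 the first of these was -2.15 (adjusted p = 0.0186), and without S100β-GFP+ libraries 14, 17 and 22 it was -0.18 (interval -1.85 to 1.48, adjusted p = 0.882). Markers of skeletal muscle fibres summed to 175 to 1579 CPM in PSCs. The highest sum was in library 18, where Nos1 had 0 counts and the limit of 0.526 CPM is above the PSC median. The part of fibre RNA in the level of Nos1 was not tested.

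Nos2 ranged from 0.175 to 6.72 CPM in PSCs (mean 1.93 ± 2.03, n = 9, median 1.21), while NG2-dsRed+ cells ranged from 5.18 to 19.7 (mean 15.1 ± 4.87, n = 10, median 15.8). It was lower in PSCs (log2 fold change -2.97, SE 0.74, adjusted p = 0.00147), and 8 of 9 PSC libraries were below each NG2-dsRed+ library. The exception was PSC library 31, at 6.72 CPM, above only the lowest NG2-dsRed+ library. In S100β-GFP+ cells the level fell into separate clusters: 7.59, 14.9 and 13.5 CPM in libraries 14, 17 and 22 (43, 63 and 82 counts), and 0 to 0.625 CPM in the other 5 (at most 5 counts each). Those 5 libraries had the higher macrophage and leukocyte sums, 5021 to 10370 CPM against 1069 to 3477 in libraries 14, 17 and 22.

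The contrast of Nos2 between PSCs and S100β-GFP+ cells therefore depended on the libraries used. With all libraries it was -1.25 on the log2 scale (SE 0.75, interval -2.72 to 0.21, adjusted p = 0.174). Without libraries 14, 17 and 22 it was 2.95 (SE 0.75, adjusted p = 0.00211), that is, higher in PSCs, against a mean of 0.225 ± 0.257 CPM (n = 5, 8 counts in all) in the S100β-GFP+ cells. With only those 3 libraries it was -2.60 (SE 0.54, adjusted p = 0.0005). S100β-GFP+ cells against NG2-dsRed+ cells gave -1.72 (SE 0.73, adjusted p = 0.0693) with all libraries and -5.89 (SE 0.77, adjusted p = 5.92e-07) without the 3.

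Nos3 was the most abundant synthase in each cell type by CPM per kb of exon, at 11.3 ± 4.33 in NG2-dsRed+ cells, 2.70 ± 3.49 in S100β-GFP+ cells and 1.72 ± 1.61 in PSCs. On the CPM scale it ranged from 1.58 to 21.9 in PSCs (mean 7.09 ± 6.64, n = 9, median 3.94), while NG2-dsRed+ cells ranged from 15.1 to 69.1 (mean 46.8 ± 17.9, n = 10, median 53.5). PSC library 31 was again the highest of its group and the only PSC library within the NG2-dsRed+ range. Nos3 was lower in PSCs than in NG2-dsRed+ cells (log2 fold change -2.74, SE 0.59, adjusted p = 0.000354).

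In S100β-GFP+ cells Nos3 was at 14.1, 40.7 and 23.9 CPM in libraries 14, 17 and 22 and at 1.22 to 3.77 CPM in the other 5, so the same 3 libraries were the high ones. PSCs against S100β-GFP+ cells gave a log2 fold change of -0.65 (SE 0.60, interval -1.82 to 0.52, adjusted p = 0.386) with all libraries and 1.72 (SE 0.54, adjusted p = 0.0114) without the 3. S100β-GFP+ cells were lower than NG2-dsRed+ cells in both fits, at -2.09 (SE 0.60, adjusted p = 0.00755) with all libraries and -4.44 (SE 0.59, adjusted p = 7.54e-07) without the 3. Reads of Nos3 could not be told from those of 2 genes on the opposite strand that share exon bases with it if the counting did not use strand. These are Gm15587 (1040 shared bases, mean CPM of 0.196 in PSCs, 0.795 in S100β-GFP+ and 1.83 in NG2-dsRed+) and Atg9b (294 shared bases, mean CPM of 0.616, 2.80 and 2.65), both far below Nos3 in NG2-dsRed+ cells. In S100β-GFP+ cells the gap was smaller, with Atg9b at 2.80 against a Nos3 mean of 11.2 CPM over all 8 libraries. The Nos3 mean was only 2.13 CPM without libraries 14, 17 and 22, and Atg9b was not read separately there.

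Summed markers of endothelium, the tissue for which Nos3 is named, were high in the cell types and libraries where Nos2 and Nos3 were high, with PSC library 18 as an exception for Nos3. The sum of 8 endothelial markers was 1441 to 3447 CPM in NG2-dsRed+ cells, 148 to 675 in PSCs, 849 to 2737 in S100β-GFP+ libraries 14, 17 and 22 and 129 to 200 in the other 5, and each of the 8 was above 0 in every library. Tek did not follow this pattern. It was at 81.7 to 204 CPM in S100β-GFP+ cells, 80.1 to 171 in NG2-dsRed+ cells and 7.68 to 37.5 in PSCs. Tek thus made up much of the sums of 129 to 200 CPM, which are not a like measure across cell types. PSC library 31, the highest PSC library for Nos2 and Nos3, also had the highest endothelial sum of the PSCs, while PSC library 18 had the lowest sum (148 CPM) and the second highest Nos3 (13.1 CPM). Among NG2-dsRed+ libraries the lowest sums were in libraries 28 and 35 (1441 and 1848 CPM), which had the lowest Nos3 (15.1 and 21.2 CPM) and the lowest Nos2 (8.67 and 5.18 CPM). These libraries differed in other markers as well. Of the NG2-dsRed+ libraries they had the highest fibroblast sums (12029 and 8851 CPM) and the lowest pericyte and smooth muscle sums (7307 and 6798 CPM).

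Within cell types 4 such relations were computed on the log2 scale. In the 10 NG2-dsRed+ libraries Nos3 rose with the endothelial sum (Pearson r = 0.927, permutation p = 0.00088, adjusted 0.00352; Spearman rho = 0.818, permutation p = 0.00585, adjusted 0.0217), as did Nos2 (r = 0.792, permutation p = 0.0143, adjusted 0.0286; rho = 0.782, permutation p = 0.0108, adjusted 0.0217). Both rested on libraries 28 and 35, without which r was 0.528 for Nos3 and 0.384 for Nos2. In the 9 PSC libraries neither passed the test (Nos2 r = 0.616, exact permutation p = 0.0748, adjusted 0.0998, rho = 0.40, exact permutation p = 0.291, adjusted 0.388; Nos3 r = 0.284, exact permutation p = 0.460, adjusted 0.460, rho = 0.283, exact permutation p = 0.463, adjusted 0.463). Without libraries 18 and 31 r was -0.24 for Nos2 and 0.479 for Nos3 in PSCs. The S100β-GFP+ libraries fall into separate clusters with 3 and 5 members, so no r is given. The part of endothelial RNA in the levels of Nos2 and Nos3 was not tested, and in sorted bulk samples fewer expressing cells and less RNA per cell cannot be told apart.

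**Figure D2:**
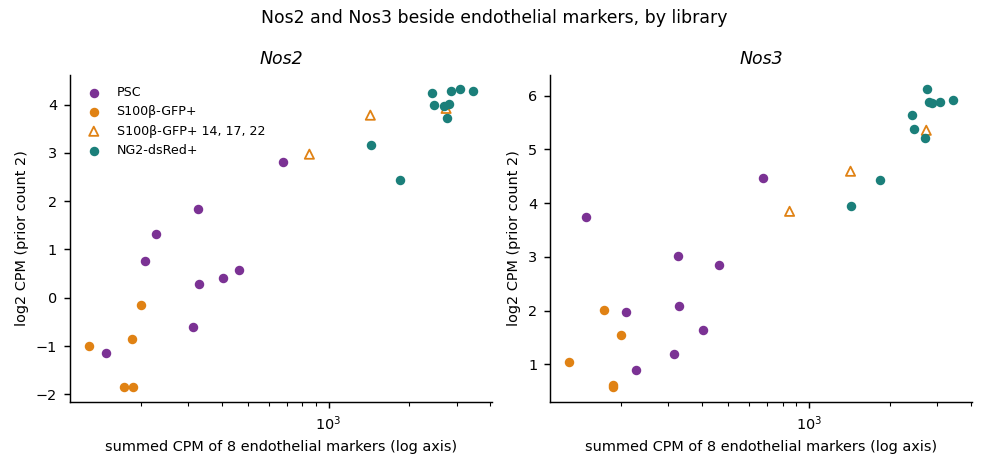
Level of Nos2 and Nos3 (y axes, log2 CPM with a prior count of 2) against the summed CPM of 8 endothelial markers (x axes, log scale), 1 mark per library. NG2-dsRed+ libraries sit at 1441 to 3447 CPM of endothelial markers, S100β-GFP+ libraries 14, 17 and 22 (open triangles) at 849 to 2737, and the other S100β-GFP+ libraries at 129 to 200.

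Gucy1a1, the alpha subunit that pairs with Gucy1b1, was the most abundant of the 7 genes in NG2-dsRed+ cells, at 66.7 ± 12.9 CPM per kb of exon. Its level ran from 358 to 596 CPM in NG2-dsRed+ cells (mean 465 ± 90.1, n = 10, median 439), from 10.6 to 32.8 in PSCs (mean 19.5 ± 7.59, n = 9, median 17.2) and from 7.12 to 65.5 in S100β-GFP+ cells (mean 29.6 ± 19.8, n = 8, median 25.0). No PSC or S100β-GFP+ library reached the NG2-dsRed+ range. The mean was 23.9-fold higher in NG2-dsRed+ cells than in PSCs (log2 fold change of PSCs -4.58, SE 0.33, adjusted p = 3.44e-12) and 15.7-fold higher than in S100β-GFP+ cells (-3.98, SE 0.34, adjusted p = 1.88e-10).

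PSCs and S100β-GFP+ cells overlapped for Gucy1a1, with a log2 fold change of -0.60 (SE 0.30, interval -1.19 to -0.0046, edgeR p = 0.0579, adjusted p = 0.107). Without libraries 14, 17 and 22 it was 0.10 (interval -0.47 to 0.68, adjusted p = 0.804), since those libraries had 28.8, 65.5 and 47.6 CPM. Without S100β-GFP+ library 3, the lowest at 7.12 CPM, the difference passed the test (-0.75, adjusted p = 0.0263).

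Gucy1b1, the beta subunit, followed its partner. It ranged from 102 to 283 CPM in NG2-dsRed+ cells (mean 184 ± 58.4, n = 10, median 178), from 2.20 to 9.46 in PSCs (mean 5.07 ± 2.23, n = 9, median 5.13) and from 2.32 to 35.7 in S100β-GFP+ cells (mean 12.4 ± 10.4, n = 8, median 11.5). Between PSCs and NG2-dsRed+ cells its gap was the widest of the 7 genes, 36.3-fold by means (log2 fold change -5.19, SE 0.40, adjusted p = 8.36e-12). Between S100β-GFP+ and NG2-dsRed+ cells it was 14.8-fold (-3.90, SE 0.39, adjusted p = 3.32e-09). Neither cell type overlapped with NG2-dsRed+ cells. Gucy1b1 was also lower in PSCs than in S100β-GFP+ cells (-1.28, SE 0.36, adjusted p = 0.0045), but only while libraries 14, 17 and 22, at 11.8, 35.7 and 15.0 CPM, were included, since without them the value was -0.48 (SE 0.33, interval -1.13 to 0.16, adjusted p = 0.248).

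The subunits were compared per kb of exon because only their pair is active. The ratio of Gucy1a1 to Gucy1b1 was between 1.19 and 2.22 in NG2-dsRed+ cells (median 1.38), between 0.966 and 2.92 in S100β-GFP+ cells (median 1.37) and between 1.02 and 5.79 in PSCs (median 2.01). The alpha transcript was thus at or above the beta transcript in each library but S100β-GFP+ libraries 3 and 33, where the ratio was 0.973 and 0.966. The widest ratios, 5.79 and 4.09, were in PSC libraries 31 and 36, and in PSCs the beta subunit rests on 18 to 65 counts per library. Gucy1a2, the other alpha subunit, was lower still, at 0.863 ± 0.630 CPM in PSCs (n = 9), 2.49 ± 1.66 in S100β-GFP+ cells (n = 8) and 20.5 ± 7.35 in NG2-dsRed+ cells (n = 10), with log2 fold changes of PSCs of -4.52 against NG2-dsRed+ cells (SE 0.46, adjusted p = 2.67e-09) and -1.48 against S100β-GFP+ cells (SE 0.46, adjusted p = 0.00858). The latter was -1.06 without libraries 14, 17 and 22 (adjusted p = 0.107).

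**Figure D3:**
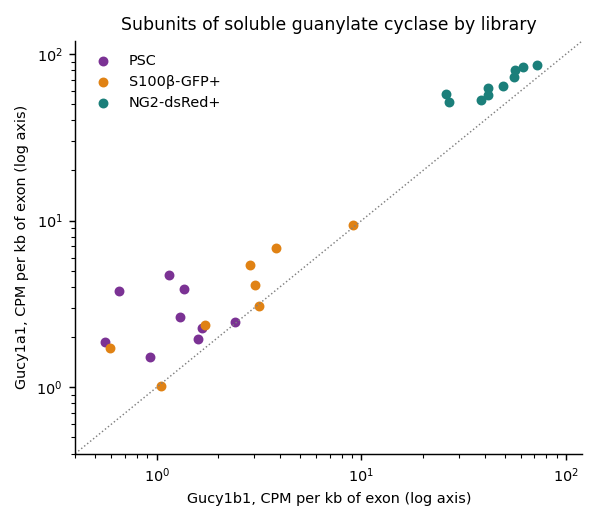
Gucy1a1 (y axis) against Gucy1b1 (x axis), both in CPM per kb of exon on log axes, 1 mark per library, with a dotted line where both are equal. NG2-dsRed+ libraries form a cluster of their own at high levels of both subunits, and PSCs have ratios from 1.02 to 5.79.

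Pde5a, which hydrolyses cGMP, was the only gene of the 7 with a higher mean in PSCs than in S100β-GFP+ cells when all libraries were included. By medians Nos2 (1.21 against 0.451 CPM) and Nos3 (3.94 against 3.20 CPM) were higher in PSCs too. Pde5a ranged from 14.9 to 29.0 CPM in PSCs (mean 22.7 ± 4.51, n = 9, median 23.8), from 9.62 to 24.0 in S100β-GFP+ cells (mean 15.2 ± 4.80, n = 8, median 14.4), while NG2-dsRed+ cells ranged from 57.4 to 86.5 (mean 71.6 ± 10.2, n = 10, median 70.1). PSCs and S100β-GFP+ cells overlap, with 4 of 9 PSC libraries above each S100β-GFP+ library, and NG2-dsRed+ cells overlap with neither. The difference from S100β-GFP+ cells was 0.58 on the log2 scale (SE 0.16, adjusted p = 0.00479), 1.49-fold by means, and 0.80 (SE 0.19, adjusted p = 0.000981) without libraries 14, 17 and 22. With only those 3 S100β-GFP+ libraries it was 0.38 (SE 0.22, adjusted p = 0.20). Against NG2-dsRed+ cells PSCs were lower by a log2 fold change of -1.66 (SE 0.16, adjusted p = 7.24e-10), the smallest gap of the 7 genes, and S100β-GFP+ cells by -2.24 (SE 0.17, adjusted p = 1.99e-11). In PSCs Pde5a and Gucy1a1 were the most abundant of the 7 genes per kb of exon, at 2.30 ± 0.459 and 2.79 ± 1.09 CPM per kb.

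Prkg1, the kinase that cGMP activates, was low in PSCs and followed the order of the cyclase. It ranged from 0.350 to 9.08 CPM in PSCs (mean 2.59 ± 2.74, n = 9, median 2.15), from 1.75 to 11.2 in S100β-GFP+ cells (mean 6.52 ± 2.91, n = 8, median 5.49), while NG2-dsRed+ cells ranged from 25.9 to 45.4 (mean 35.9 ± 6.18, n = 10, median 35.2). Again NG2-dsRed+ cells did not overlap with the others, and 4 of 9 PSC libraries were below each S100β-GFP+ library. PSCs were lower than NG2-dsRed+ cells by a log2 fold change of -3.78 (SE 0.42, adjusted p = 1.42e-08) and lower than S100β-GFP+ cells by -1.32 (SE 0.41, adjusted p = 0.00953). The second difference was -0.96 (SE 0.48, interval -1.89 to -0.03, edgeR p = 0.0537, adjusted p = 0.107) without libraries 14, 17 and 22. S100β-GFP+ cells were lower than NG2-dsRed+ cells by -2.46 (SE 0.41, adjusted p = 1.89e-05).

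Over the 7 genes, all 7 were called lower in PSCs than in NG2-dsRed+ cells, where 44% of the 15330 genes tested were called and 23.1% were lower. Gucy1a1, Gucy1b1, Pde5a and Prkg1 were lower in every PSC library than in every NG2-dsRed+ library, as were 8.83% of all genes. S100β-GFP+ cells were lower than NG2-dsRed+ cells for 5 of the 7 (33.3% of all genes were called, 15.2% lower), and the same 4 genes did not overlap (4.38%). Without libraries 14, 17 and 22, 6 of the 7 were lower (34.1% of all genes were called, 16.9% lower), among them Gucy1a1 at -4.64, Gucy1b1 at -4.68, Pde5a at -2.43 and Prkg1 at -2.77, and Nos1 did not pass (-2.02, adjusted p = 0.0772). These comparisons share the NG2-dsRed+ libraries. Between PSCs and S100β-GFP+ cells 3 of the 7 were called, near the 47% of all genes called in either direction: Gucy1b1 and Prkg1 lower (24.1% of all genes were lower) and Pde5a higher (22.9% were higher). No gene of the 7 separated these cell types in every library (10.3% of all genes were lower and 5.24% higher in every PSC library). Without libraries 14, 17 and 22, 3 genes were called too, but these were Nos2, Nos3 and Pde5a, all higher in PSCs, in a fit that called 42.4% of all genes and 22.3% as higher. The sum of the pericyte and smooth muscle markers given above was likewise higher in each NG2-dsRed+ library than in any other library. Of these markers Cnn1 alone overlapped, with a lowest level of 16.2 CPM in NG2-dsRed+ cells and a highest of 26.1 in PSCs. The part of these markers in the result was not tested. Among the NG2-dsRed+ libraries, 28 and 35 had the lowest sums of these markers (7307 and 6798 CPM). They also had the lowest Gucy1b1 (102 and 105 CPM). Library 35 had the lowest Gucy1a1 (358 CPM) and Prkg1 (25.9 CPM), while library 28, at 401 and 35.1 CPM, was within the range of the others. Pde5a went the other way, at 80.6 and 84.1 CPM, near the top of its range.

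**Figure D4:**
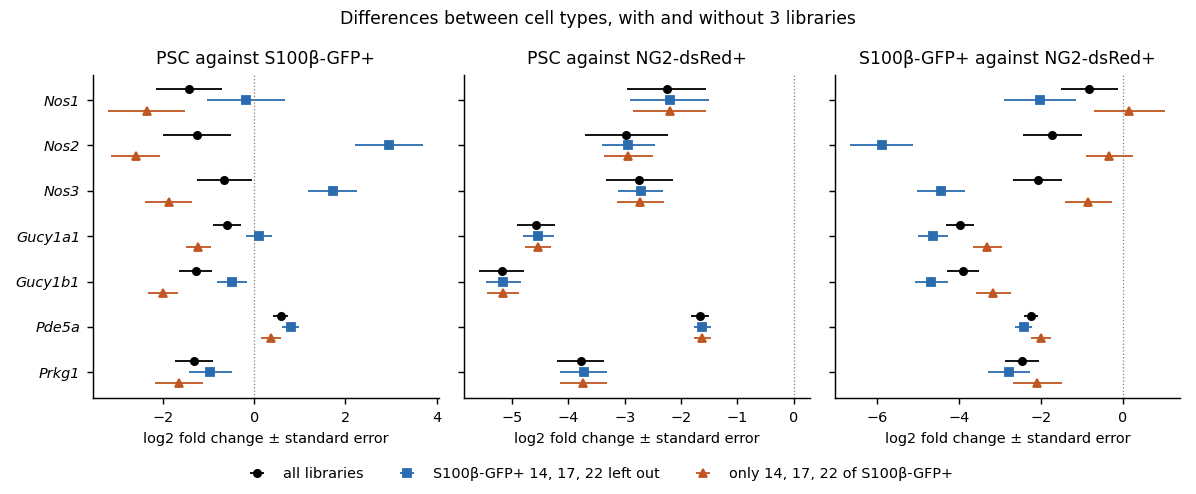
Log2 fold change with its standard error (x axes) of the 7 genes in the 3 comparisons, with all libraries (circles), without S100β-GFP+ libraries 14, 17 and 22 (squares) and with only those 3 of the S100β-GFP+ libraries (triangles). Against NG2-dsRed+ cells the PSC values of all 7 genes lie left of 0 in the 3 fits, from -1.66 for Pde5a to -5.19 for Gucy1b1 with all libraries, and against S100β-GFP+ cells the values of Nos2 move from -1.25 to 2.95.

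Across the 27 libraries, Gucy1a1 and Gucy1b1 had the most similar profiles of any pair of the 7 (Pearson r of log2 CPM 0.969), and Nos1 was the least like the others (r of 0.505 to 0.702). The genes most like each member over all tested genes were, for Nos2, Lrrc3b (0.964), the endothelial Notch ligand Dll4 (0.964) and the endothelial adhesion molecule Pecam1 (0.962), and, for Nos3, Cav2 (0.979), the glycerol channel Aqp7 (0.975) and the sialomucin Podxl (0.967). For Gucy1a1 they were the olfactory receptor gene Olfr558 (0.977), Vtn, which encodes vitronectin (0.975), and the pericyte gene Rgs5 (0.971), and for Gucy1b1 they were Vtn (0.973), Gucy1a1 and Rgs5 (0.963). Pde5a was most like Gnb4 (0.952), 4930523C07Rik (0.947) and the Notch target Heyl (0.944), and Prkg1 most like Trabd2b (0.954), Slc6a17 (0.947) and the endothelin receptor gene Ednra (0.944). Nos1 had no partner above 0.839, which was Slc12a5, followed by Ky (0.834) and Sspo (0.815). These correlations are descriptions across libraries that share a cell type, and carry no test.

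The wider pathway was read from a list of 71 genes around the 7, of which 51 passed the filter. Against NG2-dsRed+ cells PSCs had 30 of the 51 lower, 3 higher and 18 that did not pass the test (median log2 fold change -1.61, against 0.02 over all genes, with 23.1% of all genes lower and 20.9% higher). Against S100β-GFP+ cells 25 were lower, 8 higher and 18 did not pass (median -0.68, against 0.04). Of all genes, 24.1% were lower and 22.9% higher. Once libraries 14, 17 and 22 were left out the list had 19 lower and 14 higher of 52 tested, where 20.1% of all genes were lower and 22.3% higher. Between S100β-GFP+ and NG2-dsRed+ cells 20 were lower in S100β-GFP+ cells, 7 higher and 24 did not pass (median -0.53, against -0.02). Of all genes, 15.2% were lower and 18.1% higher. With libraries 14, 17 and 22 left out these were 25 lower and 6 higher of 52 (16.9% and 17.2% of all genes).

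Upstream of nitric oxide, 3 of 4 tested genes of arginine supply were lower in PSCs than in NG2-dsRed+ cells (23.1% of all genes) and 4 of 4 lower than in S100β-GFP+ cells (24.1% of all genes). With the 3 libraries left out the latter fell to 3 of 4, as Asl, which makes arginine, did not pass (-0.64, adjusted p = 0.0538). Slc7a2, an arginine transporter, was at 54.9 ± 14.9 CPM in NG2-dsRed+ cells, 13.7 ± 7.09 in S100β-GFP+ cells and 5.57 ± 3.93 in PSCs (log2 fold change of PSCs against NG2-dsRed+ cells -3.30, SE 0.35, adjusted p = 7.07e-09). Ass1, which remakes arginine from citrulline, was low everywhere, at 3.09 ± 2.12 CPM in NG2-dsRed+ cells, 3.79 ± 1.52 in S100β-GFP+ cells and 0.609 ± 0.744 in PSCs. Gch1, the rate-limiting enzyme of the synthase cofactor tetrahydrobiopterin, was at 3.86 ± 3.29 CPM in PSCs against 40.2 ± 13.5 in S100β-GFP+ cells (log2 fold change -3.37, SE 0.38, adjusted p = 1.88e-08) and 24.9 ± 11.0 in NG2-dsRed+ cells (-2.67, SE 0.37, adjusted p = 6.02e-07).

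Of the 10 partners and inhibitors of the synthases, 4 were lower in PSCs than in NG2-dsRed+ cells and 1 higher. Over all genes tested, 23.1% were lower and 20.9% higher. Nostrin, which binds Nos3 and moves it from the membrane, was at 13.5 ± 2.24 CPM in NG2-dsRed+ cells, 7.98 ± 4.05 in S100β-GFP+ cells and 0.830 ± 1.21 in PSCs, and was lower in PSCs than in both. Cav1, the caveolin that holds Nos3 inactive, was at 193 ± 110 CPM in PSCs against 1636 ± 401 in NG2-dsRed+ cells (log2 fold change -3.08, SE 0.45, adjusted p = 1.88e-06). In S100β-GFP+ cells the mean of Cav1 was 800 CPM in libraries 14, 17 and 22 and 118 in the other 5, and its difference from PSCs was -0.95 (adjusted p = 0.0743) with and 0.76 (adjusted p = 0.0453) without the 3. Cav3, the muscle caveolin, was at 0.520 ± 0.460 CPM in PSCs against 2.60 ± 1.66 in NG2-dsRed+ cells.

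Cygb, a globin that removes nitric oxide, differed more between PSCs and both other cell types than most of the list, at 168 ± 48.9 CPM in NG2-dsRed+ cells, 116 ± 58.1 in S100β-GFP+ cells and 7.37 ± 3.74 in PSCs. The log2 fold change of PSCs was -4.51 (SE 0.31, adjusted p = 1.01e-12) against NG2-dsRed+ cells and -3.98 (SE 0.31, adjusted p = 1.06e-11) against S100β-GFP+ cells, or -3.90 (adjusted p = 2.45e-10) without libraries 14, 17 and 22. Among the membrane guanylate cyclases, Npr1, the receptor of atrial natriuretic peptide, was at 6.47 ± 4.48 CPM in PSCs against 60.8 ± 23.5 in S100β-GFP+ cells (-3.23, SE 0.38, adjusted p = 3.85e-08) and 54.6 ± 14.8 in NG2-dsRed+ cells (-3.08, SE 0.37, adjusted p = 6.91e-08). Gucy2g was at most at 2.42 ± 1.18 CPM, in NG2-dsRed+ cells. Without libraries 14, 17 and 22 the differences from S100β-GFP+ cells were -2.79 for Npr1 (adjusted p = 1.94e-06), -3.45 for Gch1 (adjusted p = 1.41e-07) and -3.43 for Nostrin (adjusted p = 3.09e-06). Npr3, which clears natriuretic peptides, was at 10.3 ± 3.26 CPM in NG2-dsRed+ cells, 5.50 ± 3.02 in S100β-GFP+ cells and 1.76 ± 1.13 in PSCs, lower in PSCs than in either, also without libraries 14, 17 and 22 (-1.33 against S100β-GFP+ cells, adjusted p = 0.0278).

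The other phosphodiesterases did not move as a block, with 4 of 9 lower and 5 not past the test between PSCs and NG2-dsRed+ cells. Over all genes tested, 23.1% were lower. Pde3a, which cGMP inhibits, was at 199 ± 55.0 CPM in NG2-dsRed+ cells, 41.6 ± 17.1 in S100β-GFP+ cells and 7.82 ± 4.40 in PSCs (PSCs against NG2-dsRed+ cells -4.66, SE 0.35, adjusted p = 6.46e-12). Pde1b (0.558 ± 0.624 CPM in PSCs against 14.4 ± 4.40 in NG2-dsRed+ cells), Pde9a (1.48 ± 1.18 and 16.0 ± 3.28) and Pde2a (0.593 ± 0.535 and 3.05 ± 1.31) were lower in PSCs than in NG2-dsRed+ cells as well. Pde1a, which calcium and calmodulin activate, was different: at 33.1 ± 10.7 CPM in PSCs against 39.3 ± 7.01 in NG2-dsRed+ cells its difference did not pass the test (-0.25, SE 0.22, adjusted p = 0.363), while S100β-GFP+ cells had 6.76 ± 3.12 CPM, so that PSCs were higher by 2.30 on the log2 scale (SE 0.25, adjusted p = 6.59e-09) and by 2.77 (adjusted p = 2.58e-09) without libraries 14, 17 and 22.

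Downstream of cGMP, all 9 targets and anchors of the kinase passed the test between PSCs and NG2-dsRed+ cells, 8 of them lower in PSCs. Of all genes tested, 44% were called in that comparison and 23.1% were lower. The same counts, 9 called and 8 lower, held for S100β-GFP+ against NG2-dsRed+ cells (33.3% of all genes called, 15.2% lower). They are thus not particular to PSCs. Against S100β-GFP+ cells PSCs had 4 of the 9 lower and 2 higher (24.1% and 22.9% of all genes). Irag1 (named Mrvi1 in the annotation), which ties Prkg1 to the calcium release channel, was at 115 ± 29.0 CPM in NG2-dsRed+ cells, 11.5 ± 6.19 in S100β-GFP+ cells and 4.74 ± 2.79 in PSCs (-4.60, SE 0.32, adjusted p = 9.54e-13). The potassium channel gene Kcnma1 (2.83 ± 1.79 CPM in PSCs against 21.1 ± 8.70 in NG2-dsRed+ cells) and Pln, which encodes phospholamban (1.77 ± 0.559 and 11.3 ± 4.17), were lower in PSCs too. Prkg2, the second cGMP-dependent kinase, was at 42.3 ± 12.5 CPM in NG2-dsRed+ cells, 8.60 ± 5.38 in S100β-GFP+ cells and 2.62 ± 3.07 in PSCs (-4.05, SE 0.54, adjusted p = 3.72e-07). Rgs2, which dampens G protein signals, was higher in PSCs than in NG2-dsRed+ cells (1.13, SE 0.30, adjusted p = 0.00311), and was chosen for naming after its values were seen.

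**Figure D5:**
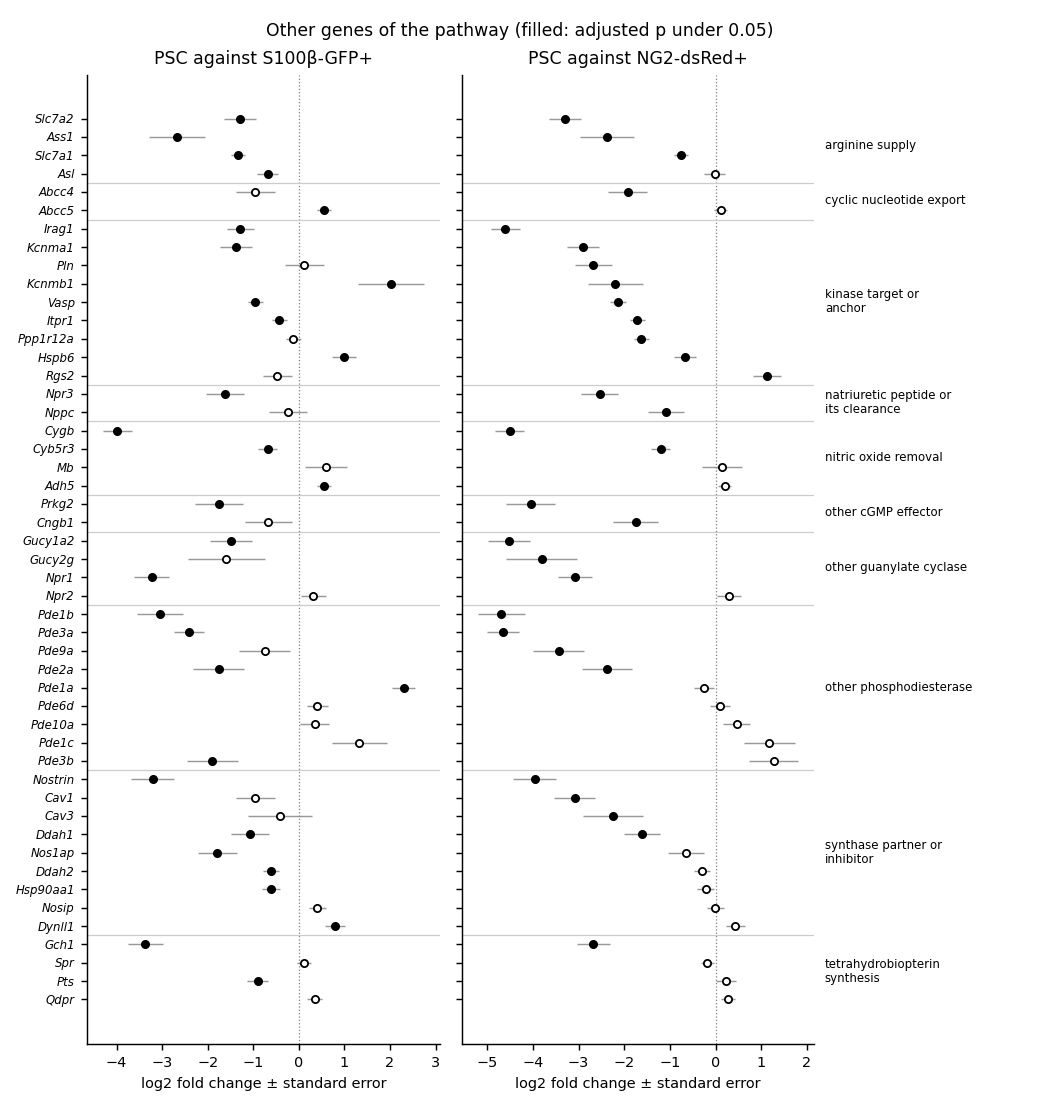
Log2 fold change with its standard error (x axes) of PSCs against S100β-GFP+ cells (left) and NG2-dsRed+ cells (right) for 49 of the 51 tested genes of the wider pathway, grouped by role, with filled points where the adjusted p is under 0.05. On the right 30 filled points lie below 0 and 1 above, and on the left 25 below and 6 above.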

How the data were processed

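Libraries were made with the SMART-Seq v4 kit. The authors used ea-utils and Btrim for trimming, HISAT2 for alignment and HTSeq for counting; the submitters' notes name GRCm38. The deposited table holds whole-number counts per gene without normalization, and the sources used here give no versions, annotation or use of strand. Of 36 labelled libraries, 27 have a column and were used; the study's design text gives 7 S100β-GFP+ libraries and the table has 8. No 2 columns were identical, and pairs of the same cell type differed beyond sampling noise (chi-square over its degrees of freedom 8.10 or more). GENCODE M21 held 99.72% of the identifiers.

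In R 4.3.3, edgeR 4.0.16 (TMM, filterByExpr with a minimum count of 10, a quasi-likelihood fit of all 3 cell types, Benjamini-Hochberg adjustment over all 15330 genes at 0.05) gave log2 fold changes, and every adjusted p. The pipeline was tested on simulated data. SE is the log2 fold change over the root of the F statistic. Log2 CPM used a prior count of 2. Correlations within a cell type had two-sided permutation tests (exact for 9 libraries, otherwise 100000 permutations). Limits at 0 counts cover counting error only, since PCR copies were not told from molecules.

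The members and lists were chosen with earlier results of these data known. Named were the 7 members, pathway genes called in all 3 comparisons or with an absolute log2 fold change of at least 2 in a PSC comparison (at most 20, largest first), and the 3 genes most like each member. Alternatives were DESeq2 1.42.0, its size factors in edgeR, limma-voom (limma 3.58.1) with quality weights, no filter, a mean count of at least 5 as filter, only the 2 cell types compared, and each library left out. Added after seeing the data were fits without S100β-GFP+ libraries 14, 17 and 22, with only these, and with a term for the part of each library's counts (3.64% to 40.0%) that fell on Lars2, Gm23935 and Gm15564. A few genes of the lists are not reported singly here.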

Additional observations from a re-analysis of the deposited data

Results flagged for a closer look

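Of 21 sets of values (7 genes in 3 cell types), 3 had a library far from the nearest of the others, a gap that chance gives in about 1 in 20 sets. Nos2 in PSC library 31 was at 6.72 CPM, with a gap of 0.525 of the range of the PSCs. This library also had the highest endothelial sum of the PSCs (675 CPM) and 4154 CPM of chondrocyte and tenocyte markers. Gucy1b1 in S100β-GFP+ library 17 was at 35.7 CPM, with a gap of 0.621 of the range, and this is 1 of the 3 S100β-GFP+ libraries that stand apart. Prkg1 in PSC library 34 was at 9.08 CPM, with a gap of 0.558 of the range, from 70 counts. The part of these libraries' other cell markers in the 3 values was not tested.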

How the results depend on the processing

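No paired analysis was possible because the sources used here do not name the mouse of each library. Libraries of different cell types may share a mouse, which the fits did not take into account. Over all alternatives, 538 fold changes of the 7 genes kept direction and side of the threshold, 8 changed sign, 13 newly passed and 7 no longer passed; 160 counts stayed within 1.5 times and 2 did not. The latter came with only S100β-GFP+ libraries 14, 17 and 22 kept. For PSCs against S100β-GFP+ cells 6 of the 7 genes were then called in place of 3. Of all genes, 5941 of 17240 were called there, against 7198 of 15330 in the main fit. For S100β-GFP+ against NG2-dsRed+ cells 11 pathway genes were called in place of 27, with Nos1 at 0.15. Of all genes, 2484 of 17240 were called there, against 5099 of 15330. Between PSCs and S100β-GFP+ cells, signs changed with limma-voom for Nos2 (1.28, adjusted p = 0.235) and Nos3 (0.20, adjusted p = 0.823), without libraries 14, 17 and 22 for Nos2 (2.95), Nos3 (1.72) and Gucy1a1 (0.10), and with the share of Lars2, Gm23935 and Gm15564 as a term for Nos3 (0.37, adjusted p = 0.599). Leaving out 1 library at a time moved Nos3 between -1.09 and 0.011, the last without S100β-GFP+ library 17. Gucy1b1 no longer passed there with limma-voom (-0.80, adjusted p = 0.134) or with that term (-0.90, adjusted p = 0.0536), nor Prkg1 with only the compared cell types (-1.34, adjusted p = 0.05). Between S100β-GFP+ and NG2-dsRed+ cells Nos2 passed with no filter (-1.79), limma-voom (-4.85), that term (-2.13) or without library 17 (-2.25) or 22 (-2.21), and Nos1 with limma-voom (-1.60). The causes were not tested. All 7 genes were lower in PSCs than in NG2-dsRed+ cells under every alternative run. With 1 library left out, called genes were 3 to 4 of 7 and 31 to 35 of the pathway between PSCs and S100β-GFP+ cells, 7 and 32 to 37 against NG2-dsRed+ cells, and 5 to 6 and 24 to 29 between the last pair. DESeq2, over more genes, called 4187 higher and 2270 lower in S100β-GFP+ than in NG2-dsRed+ cells, against 2771 and 2328, with a median log2 fold change over all genes of 0.25. Depth limits Nos1, with at most 27 counts in a PSC library. Only the 2-cell-type fit of PSCs and S100β-GFP+ cells gave no value for Nos1, which fell below its filter.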
